A study of Mus musculus with 2 samples.

Results

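The genes described here are 10 regulators of muscle energy metabolism: the coactivators Ppargc1a and Ppargc1b and the nuclear receptors Esrra, Esrrb, Esrrg, Ppara, Ppard, Rxra, Rxrg and Nr4a1. They were chosen by name, as the transcript models whose annotated gene name equals one of these symbols, and are 10 of the 15747 annotated genes with a read in either library. Long-read RNA sequencing was done on gastrocnemius, the large calf muscle, of B6CASTF1/J females, the hybrid offspring of C57BL/6 and CAST mice, at 14 days of age. There was 1 group of 2 libraries, biological replicates 1 and 2, each from 2 µg of total RNA, so the design holds no comparison between conditions. The label of the first biosample names 3 females and that of the second a female, with no count. The donor identifier is the same for the 2 libraries, and the sources used here do not say whether animals were pooled. The counts of long reads per transcript model show which forms of these genes the muscle expressed and how far the 2 libraries differed.

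Nuclear receptors are transcription factors with a DNA-binding domain and a ligand-binding domain. The retinoid X receptors (RXR) are the dimer partners of the peroxisome proliferator-activated receptors (PPAR), which respond to fatty acids and drive genes of fat oxidation. The estrogen-related receptors (ERR) are orphan receptors that bind promoters of mitochondrial genes. The coactivators PGC-1alpha and PGC-1beta, encoded by Ppargc1a and Ppargc1b, do not bind DNA themselves and dock on ERR and PPAR proteins. In skeletal muscle this circuit controls mitochondrial content and fuel choice. NR4A1 is an orphan receptor that is rapidly induced by muscle activity and adrenergic signals.

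There were 1316937 reads in 81166 models in replicate 1 and 1204188 reads in 74548 models in replicate 2, and annotated genes took 1248854 and 1106450 of them. Levels are in CPM, scaled to each library's reads of annotated genes. Each read of replicate 1 counted for 0.801 CPM and each of replicate 2 for 0.904 CPM. Where no read was seen, up to 3 reads (2.40 or 2.71 CPM) are possible. A long read stands for 1 transcript, so CPM was not divided by gene length. Models averaged 2347 bases over the reads of replicate 1 and 1545 bases over those of replicate 2. By the tables' classes, the introns of a known model match an annotated transcript whole. Those of an incomplete splice match (ISM) as a rule match a stretch of one. Some ISM models are single exons, and a Nr4a1 model of 47 reads in replicate 1 was classed ISM with 1 unannotated intron. NIC and NNC models splice in ways the annotation lacks, NNC with at least 1 new splice site. Genomic models, which overlap a gene without its splicing, took 2.06% and 6.49% of gene reads, and single-exon models of any class 5.28% and 12.6%. Of the marker lists, the 7 skeletal muscle fibre genes summed to 188127 and 205914 CPM, the 5 fibroblast genes to 7980 and 3454 CPM, the 5 endothelial genes to 306 and 193 CPM and the 5 Schwann cell genes to 585 and 2458 CPM. All markers of these lists had reads in both libraries. The collagen genes Col1a1, with 4801 and 1522 reads, and Col3a1, with 4665 and 1881, made most of the fibroblast sum. Dcn had 412 and 347 reads, Lum 77 and 63 and Pdgfra 11 and 9, so the sum does not stand for each marker. The adipocyte, macrophage and satellite cell lists summed to 16.8 and 18.1, 40.0 and 21.7, and 11.2 and 3.62 CPM. The 5 cardiomyocyte genes summed to 298 and 513 CPM, of which Myl3, which slow muscle fibres also express, had 363 and 565 reads and Myh6 9 and 2, while Nppa and Myl7 had 0 in both libraries. The part of cell make-up in the differences below was not tested. In bulk tissue, fewer cells of a type and less RNA per cell cannot be told apart. Counts of reads carry no molecular identifiers, so intervals and exact tests cover counting error only. P-values between the libraries compare these 2 libraries, not conditions or animals.

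Reads of the 10 genes were few, apart from those of Esrra. Together they had 338 reads in 40 models in replicate 1 (270.6 CPM) and 1150 reads in 46 models in replicate 2 (1039 CPM). Esrra held 142 and 1039 of these reads. The other 9 genes summed to 196 reads (156.9 CPM) and 111 reads (100.3 CPM). Spliced models, those of at least 2 exons, took 59.8% of the reads of the 10 genes in replicate 1 and 6.78% in replicate 2. Without Esrra the spliced shares were 84.2% (Wilson 95% interval 78.4 to 88.6%) and 61.3% (52.0 to 69.8%), against 94.7% and 87.4% over all annotated genes. Models that hold an annotated coding sequence from start to stop took 151 of the 196 reads and 51 of the 111 reads of the 9 genes. Counts are per model, so the span of each single read was not seen. The plot of reads per gene and library shows all reads beside spliced reads.

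**Figure D1:**
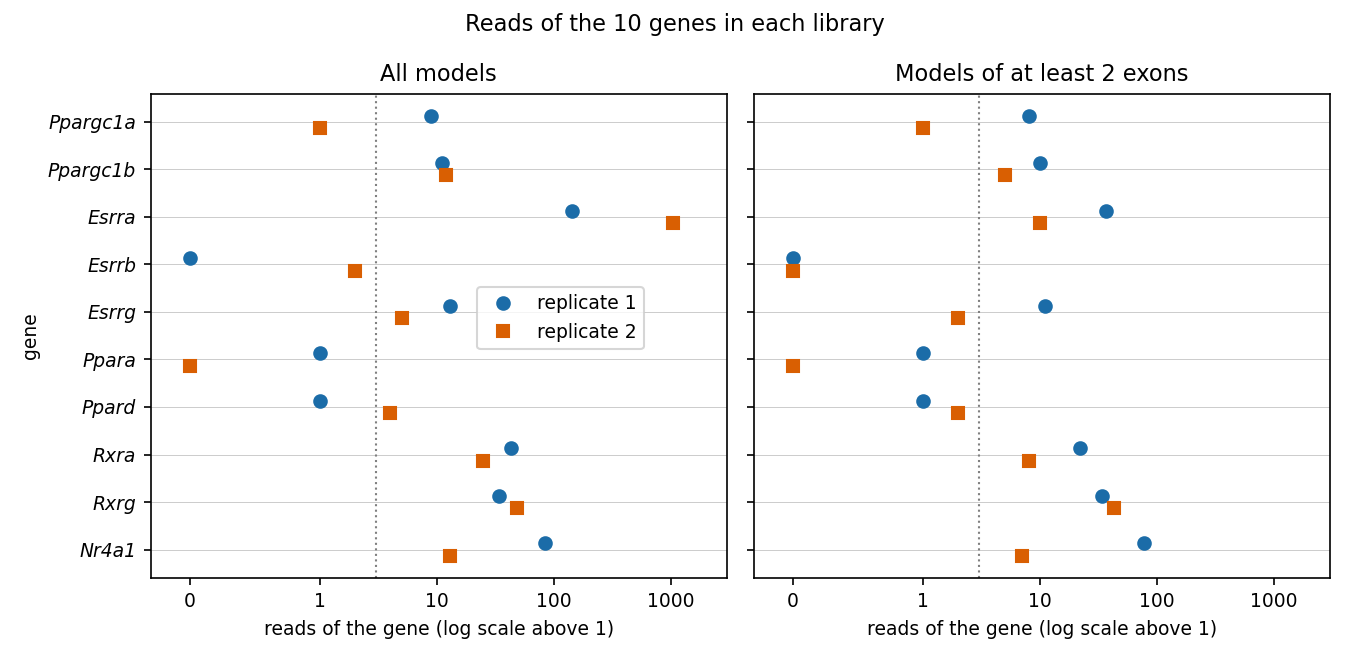
Reads of each of the 10 genes in replicate 1 (circles) and replicate 2 (squares), on an axis that is logarithmic above 1, for all models (left) and for models of at least 2 exons (right). The dotted line marks 3 reads, the limit that a count of 0 allows. Esrra in replicate 2 lies at 1039 reads on the left and at 10 reads on the right.

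By spliced CPM, in which spliced reads are scaled to the spliced reads of all genes, the order was Rxrg at 36.6 ± 11.1 (SD, n = 2), Nr4a1 at 36.6 ± 41.5, Esrra at 20.8 ± 14.8, Rxra at 13.4 ± 7.30, Ppargc1b at 6.81 ± 2.32, Esrrg at 5.68 ± 5.11 and Ppargc1a at 3.90 ± 4.05. Ppard, Ppara and Esrrb followed with 3, 1 and 0 spliced reads in both libraries together, too few to order. Each gap between neighbours from Rxrg to Ppargc1a was smaller than the larger of the 2 SDs, so neighbours in this order did not differ beyond their spread.

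Between the libraries, 7 of the 10 genes had the 10 reads in the sum needed for Fisher's exact test, run over all 8973 annotated genes that had them. Genes were called where the adjusted p (Benjamini-Hochberg) was under 0.05 and the TMM-scaled log2 ratio was at least 1 in size. A positive log2 ratio means higher in replicate 1. Of the 7, 1 was called higher in replicate 1 (Nr4a1), where 8.83% of all genes tested were, and 1 higher in replicate 2 (Esrra), where 11.4% were. Esrra changed sides when only spliced reads were counted, and Nr4a1 did not. TMM scaling moved every log2 ratio by -0.28 against scaling by the total alone. Fisher's exact test used unscaled totals, so its p-values belong to the ratio by the total alone. For Rxrg, given below, that ratio was -0.70, against -0.98 with TMM. Both calls were the same under either scaling, but only the log2 limit could change them, as the p-values were the same.

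The coactivators had few reads. Ppargc1a (ENSMUSG00000029167.13, chromosome 5, 51454250 to 51567726, minus strand, mm10) encodes PGC-1alpha and had 9 reads in replicate 1 and 1 read in replicate 2, or 4.06 ± 4.46 CPM (SD, n = 2). The log2 ratio of 2.20 did not pass (Fisher's exact test, adjusted p = 0.068). Most of these reads were assigned to a model of the whole transcript. Ppargc1a-203, a known model of 13 exons, 6464 bases and 797 codons, had 5 reads and 1 read. Its first exon (51553735 to 51553922), the proximal start of the gene, was joined to the second exon in 6 of 7 reads and in the only informative read of replicate 2. A single read of replicate 1 started instead at the distal start of the gene, in an exon at 51567580 to 51567726 whose junction is outside the annotation. The other spliced models, each with 1 read of replicate 1, were an NNC model of 13 exons from the proximal start and an incomplete one of 6 exons. The junction from the proximal first exon into the second is shown because 7 of the 10 Ppargc1a reads cross it, with the second exon in capitals, from the GENCODE M21 transcript, which is C57BL/6 reference sequence.

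Ppargc1a-203 exons 1 and 2: tggagtgacatagagTGTGCTGCTCTGGTT

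Ppargc1b (ENSMUSG00000033871.14, chromosome 18, 61298136 to 61400431, minus strand) encodes PGC-1beta and had 11 reads and 12 reads, or 9.83 ± 1.44 CPM (SD, n = 2). Similar totals came from different models. Spliced reads were 10 of 11 in replicate 1 and 5 of 12 in replicate 2. The known model Ppargc1b-202, of 12 exons and 1014 codons, had 6 reads and 1 read. An incomplete model of 8 exons had 2 and 3 reads. A single-exon genomic model of 659 or 669 bases inside an intron, which overlaps no annotated exon on either strand, had 1 and 6 reads. The log2 ratio was -0.58 over all reads (adjusted p = 0.82, Fisher's exact test) and 0.31 over spliced reads (adjusted p = 0.60).

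Of the ERR genes, Esrra (ENSMUSG00000024955.14, chromosome 19, 6910977 to 6921813, minus strand) encodes ERRalpha, the receptor through which PGC-1alpha reaches many oxidative phosphorylation genes. It had 142 reads in replicate 1 and 1039 reads in replicate 2, which is 113.7 CPM (95% interval 96.5 to 134) and 939 CPM (884 to 998). The intervals of the libraries do not overlap, and the log2 ratio was -3.33 (Fisher's exact test, adjusted p = 3.8e-191). The excess of replicate 2 lay in 1 kind of model, while spliced reads numbered 37 in replicate 1 and 10 in replicate 2. A single-exon genomic model held 105 reads in replicate 1, at 6910977 to 6911049 (73 bases), and 1028 reads in replicate 2, at 6910834 to 6911049 (216 bases). Genomic reads were 73.9% of Esrra's reads in replicate 1 and 99.0% in replicate 2.

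These models lie where Esrra meets a neighbour. Trmt112, which encodes an activator of methyltransferases, runs in the opposite direction from 6909698 to 6911049 on the plus strand, and its last exon (6910752 to 6911049) overlaps the end of Esrra by 73 bases. All 73 bases of the model in replicate 1 lie in exons of both genes. In replicate 2 all 216 bases lie in the last exon of Trmt112, and 73 of them in that of Esrra. The tables assign the models to the minus strand. Trmt112 itself had 31 reads and 52 reads, of which 31 and 51 were spliced, with a log2 ratio of -1.20 (Fisher's exact test, adjusted p = 0.021). The sources used here do not say whether the reads kept their strand. The 2 genes therefore cannot be told apart over the shared bases, and which of them the RNA came from was not tested.

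**Figure D2:**
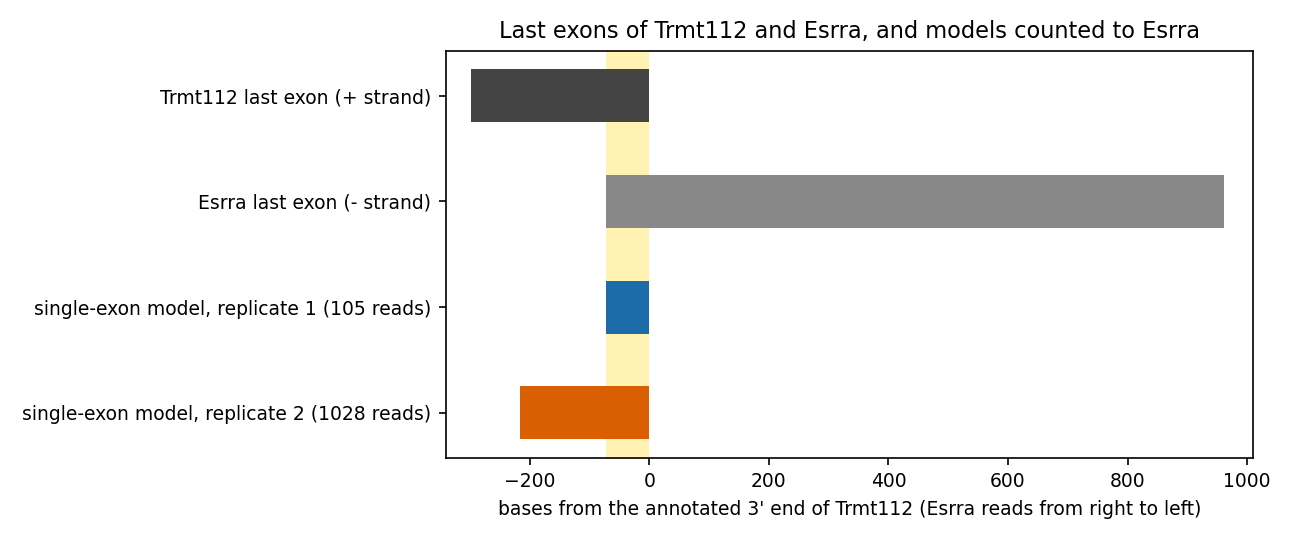
Last exons of Trmt112 and Esrra and the single-exon models counted to Esrra in each library, in bases from the annotated 3' end of Trmt112. The yellow band marks the 73 bases that both last exons share. The 216-base model of replicate 2 lies whole within the last exon of Trmt112.

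Counted without such models, Esrra went the other way. Spliced reads were 37 in replicate 1 and 10 in replicate 2, and the log2 ratio over spliced reads was 1.22 (Fisher's exact test, adjusted p = 0.0051), higher in replicate 1, where 10.7% of the 7863 genes tested were called (9.65% the other way). Without genomic models it was 1.28 (adjusted p = 0.0031) and over full splice models (known, NIC and NNC) 1.41 (adjusted p = 0.0044). Esrra-201, the known model of 7 exons, 2242 bases and 422 codons, had 31 reads and 6 reads. Its first exon (6921622 to 6921808) led into the second in 34 of 34 reads and 7 of 8 reads. A chain of 12 exons that joins exons of Esrra to exons of Prdx5, the next gene on the same strand, had 1 read in each library. Another 4-exon model of replicate 2, with 1 read, was assigned to Esrra although it starts at 6907542 to 6907673, inside the span of Prdx5 (6906697 to 6910106). Esrra was not the only gene with such a share. Of genes with at least 100 reads, 12 of 1361 (0.882%) in replicate 1 and 80 of 1192 (6.71%) in replicate 2 had at least 50% of their reads in genomic models. Among single-exon genomic models with at least 50 reads, 4 of 66 and 18 of 190 had at least 90% of their bases in an exon of the opposite strand, and the Esrra model was 23rd and 6th by reads.

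Esrrg (ENSMUSG00000026610.13, chromosome 1, 187608791 to 188214885, plus strand) encodes ERRgamma, an ERR of oxidative muscle. It had 13 reads and 5 reads, or 7.46 ± 4.17 CPM (SD, n = 2), with a log2 ratio of 0.84 (adjusted p = 0.29, Fisher's exact test). The leading model was an incomplete one of 6 exons that starts in the exon at 188043334 to 188043749 and holds the whole coding sequence of Esrrg-202 and Esrrg-203, with 7 reads and 1 read. Esrrg-201, of 7 exons, which starts at another first exon (187997827 to 187998052), had 1 read in replicate 1 only. Single-exon reads in the last exon numbered 2 and 3. Other spliced reads, 3 in replicate 1 and 1 in replicate 2, lay in exons between 187651824 and 187712107 and had junctions outside the annotation only. Esrrb (ENSMUSG00000021255.17, chromosome 12, 86361117 to 86521628, plus strand), an ERR best known from embryonic stem cells, had 0 reads in replicate 1, which allows up to 2.40 CPM, and 2 unspliced reads in replicate 2. No spliced Esrrb read was seen in either library.

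Of the PPAR genes, Ppara and Ppard were at the limit of detection. Ppara (ENSMUSG00000022383.13, chromosome 15, 85734983 to 85802819, plus strand), the receptor best known for fat oxidation in liver, had 1 read in replicate 1, in an NNC model of 4 exons, and 0 reads in replicate 2. Ppard (ENSMUSG00000002250.16, chromosome 17, 28232700 to 28301474, plus strand), the PPAR most often described in muscle fibres, had 1 read and 4 reads. The known model Ppard-201, of 8 exons and 440 codons, was seen once, in replicate 2, and 2 more reads of that library lay unspliced in the last exon. Pparg, the third PPAR gene and a marker of adipocytes, had 9 and 8 reads, all spliced. Differences of the size seen for Ppara and Ppard were not detectable at this depth. None of Ppara, Ppard and Esrrb had the 10 reads needed for the test.

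The RXR genes had more reads. Rxra (ENSMUSG00000015846.14, chromosome 2, 27676440 to 27762957, plus strand) encodes RXRalpha and had 43 reads and 25 reads, or 28.5 ± 8.37 CPM (SD, n = 2), with a log2 ratio of 0.31 (adjusted p = 0.23, Fisher's exact test). Its reads were of 2 kinds in both libraries. Rxra-201, a known model of 10 exons, 4905 bases and 467 codons, had 20 reads and 5 reads. Single-exon reads inside its last exon (27759541 to 27762957, 3417 bases) numbered 21 and 17. The tables class these as genomic in replicate 1 and as ISM in replicate 2. The class therefore cannot be compared between the libraries for this gene, and leaving out genomic models turned its log2 ratio to -0.73 (adjusted p = 0.53) while spliced reads gave 0.78 (adjusted p = 0.11).

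Rxrg (ENSMUSG00000015843.10, chromosome 1, 167598384 to 167639623, plus strand) encodes RXRgamma, the RXR known from skeletal muscle and brain. It had 34 reads and 49 reads, or 35.8 ± 12.1 CPM (SD, n = 2), with a log2 ratio of -0.98 (adjusted p = 0.094, Fisher's exact test), and 34 and 43 of these reads were spliced. A pair of known models led. Rxrg-202, of 9 exons and 1630 bases, had 24 reads and 21 reads and starts at an internal first exon (167618309 to 167618495). Rxrg-201, of 10 exons and 2110 bases, had 9 and 10 reads and starts further upstream, at 167598384. Their coding sequences differ at the start. That of Rxrg-201 has 463 codons, while that of Rxrg-202 has 340 codons and starts at 167625000, inside the exon that both share (167624928 to 167625072). The junction into that shared exon tells the forms apart, and is shown from the GENCODE M21 transcripts with the shared exon in capitals.

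Rxrg-202 exons 1 and 2: ctcttgtcgtgacctCTAAATGTGGTCAAC
Rxrg-201 exons 2 and 3: ccacccagctcccagCTAAATGTGGTCAAC

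Reads into the shared exon came from the Rxrg-202 exon in 24 of 34 cases in replicate 1, which is 70.6% (Wilson 95% interval 53.8 to 83.2%). In replicate 2 it was 26 of 40, or 65.0% (49.5 to 77.9%). The Rxrg-201 exon (167613704 to 167613951) gave 10 of 34 (29.4%, 16.8 to 46.2%) and 12 of 40 (30.0%, 18.1 to 45.4%). The short form led in both libraries by these shares, and the intervals of the 2 exons did not overlap in either library. Over whole full splice chains, the leading chain of Rxrg took 24 of 33 reads (72.7%) and 21 of 39 reads (53.8%). This difference did not pass (Fisher's exact test, p = 0.143, adjusted p = 1), where 1.55% of the 2898 genes tested were called. Among known chains alone the difference between the libraries was 4.99 percentage points, against 18.9 over all full splice chains. Rxrg was the only one of the 10 genes with the 20 full splice reads in each library that this test needed. Unannotated junctions of Rxrg numbered 7 with 9 crossings in replicate 2 and 0 in replicate 1, and among them was an extra exon (167624364 to 167624441) with 2 of 40 reads. A single-exon genomic model of 200 bases in the last exon had 6 reads in replicate 2.

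Since the 2 Rxrg forms start at different first exons, the 250 bases before each start in the RefSeq promoter table (GRCm38.p6) are shown, with matches to AGGTCA, the receptor half-site, and to CANNTG, the E-box of myogenic factors, in capitals. Both strands were searched, and a match is a description of these letters only.

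Rxrg-202 side, chr1:167618015-167618264, plus strand: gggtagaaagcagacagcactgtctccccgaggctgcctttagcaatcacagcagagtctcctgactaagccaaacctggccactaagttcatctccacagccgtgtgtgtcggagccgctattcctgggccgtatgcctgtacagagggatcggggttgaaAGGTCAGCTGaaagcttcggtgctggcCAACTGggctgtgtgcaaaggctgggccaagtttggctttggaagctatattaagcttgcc
Rxrg-201 side, chr1:167598112-167598361, plus strand: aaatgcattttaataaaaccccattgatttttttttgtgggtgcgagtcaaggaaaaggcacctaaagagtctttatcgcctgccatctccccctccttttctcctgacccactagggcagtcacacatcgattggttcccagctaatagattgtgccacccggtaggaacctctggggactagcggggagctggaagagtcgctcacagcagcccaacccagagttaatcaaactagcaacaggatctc

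The window at the Rxrg-202 side held 1 AGGTCA and 2 CANNTG, the first of which overlaps the AGGTCA. The window at the Rxrg-201 side held neither. Of all 32817 such windows, 14.0% held AGGTCA and 66.2% held CANNTG. Windows were found for 9 of the 10 genes, all except Ppargc1b. Neither motif was particular to Rxrg among them. A window of Rxra (chr2:27709042-27709291) held 2 AGGTCA, and CANNTG was in windows of other genes, with 6 in that of Ppargc1a.

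Nr4a1 (ENSMUSG00000023034.7, chromosome 15, 101254269 to 101274795, plus strand) had 84 reads in replicate 1 and 13 reads in replicate 2, which is 67.3 CPM (95% interval 54.3 to 83.3) and 11.7 CPM (6.87 to 20.1). The intervals do not overlap, and the log2 ratio was 2.19 (Fisher's exact test, adjusted p = 4.6e-11). Spliced reads numbered 78 and 7, with a log2 ratio of 2.77 (adjusted p = 3.1e-12, Fisher's exact test). The call held after the trend of the ratio on transcript length was removed (2.05, binomial test, adjusted p = 3.5e-07). In that setting 3.71% of genes were called in this direction and 6.9% in the other. Full splice models alone also gave a call (1.31, Fisher's exact test, adjusted p = 0.031, where 11.4% of the 7815 genes tested were called in that direction). These models are unlike sets in the 2 libraries. The chain with the most reads was classed ISM in replicate 1, so its 47 reads were left out. In replicate 2 it was classed NNC, so its 4 reads were kept. Models that hold the whole coding sequence took 77 of 84 reads and 6 of 13 reads.

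Most Nr4a1 reads into the shared exon came from an exon that the annotation does not hold. An exon of 185 bases at 101260655 to 101260839 was joined directly to the shared exon at 101270083 to 101270969. Of the reads into the shared exon, 48 of 71 in replicate 1 had this junction, which is 67.6% (Wilson 95% interval 56.1 to 77.3%). In replicate 2 it was 4 of 6, or 66.7% (30.0 to 90.3%). The annotated first exon of Nr4a1-201 (101266846 to 101266971) gave 18 of 71 (25.4%, 16.7 to 36.6%) and 1 of 6. The exon of Nr4a1-202 (101258308 to 101258426), whose chain starts further upstream at 101254269, gave 4 of 71 and 1 of 6. In replicate 1 the intervals of the unannotated exon and of each annotated exon did not overlap, while with 6 reads replicate 2 gives no order. All 3 chains hold the same annotated coding sequence, which begins in the shared exon, so they differ only in sequence before the coding part. The leading chain, of 7 exons with 47 reads and 4 reads, was classed as ISM in replicate 1 and as NNC in replicate 2. It was the only chain of the 10 genes found in both libraries whose class differed, as for 900 chains over all annotated genes. In 1 of the 48 reads of replicate 1 the unannotated exon was internal, in a chain of 9 exons that starts at 101254269. An incomplete chain that starts in the shared exon, of 6 exons, had 6 reads and 1 read. Single-exon models of the last exon took 5 and 4 reads, and single-exon models in the unannotated exon took 1 and 2. The annotated junctions into the shared exon are shown with the shared exon in capitals.

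Nr4a1-201 exons 1 and 2: gtgggagccggctggAGATGCCCTGTATTC
Nr4a1-202 exons 2 and 3: gttcacccagagtggAGATGCCCTGTATTC

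**Figure D3:**
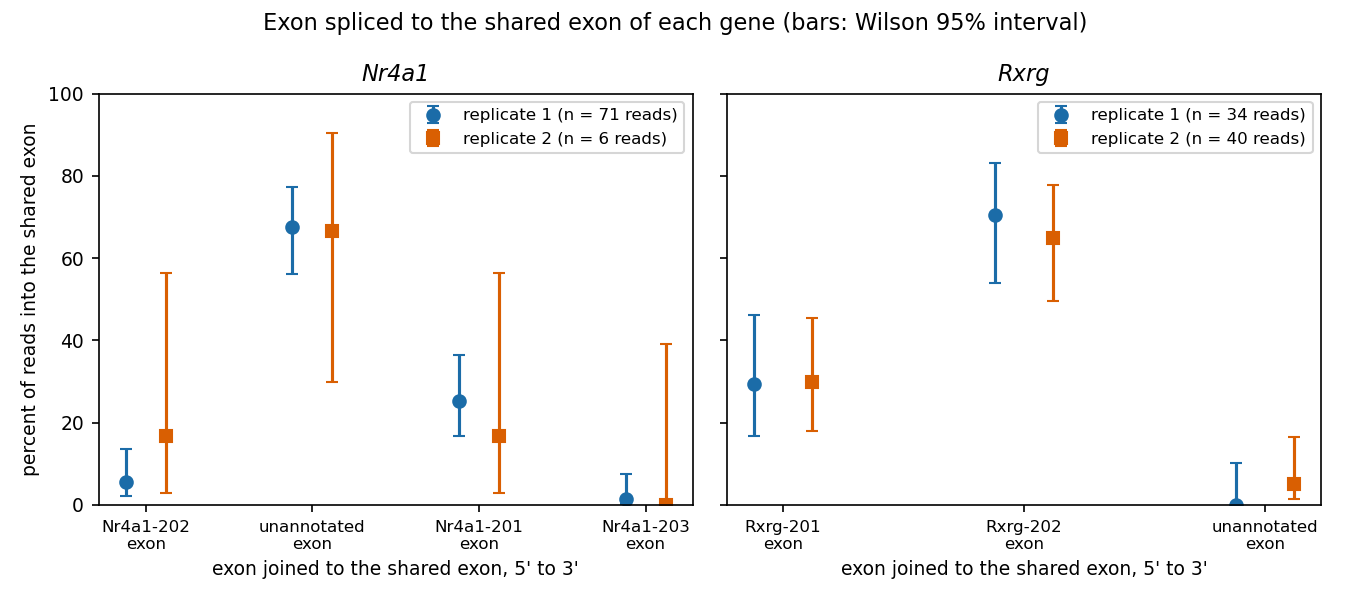
Share of reads into the shared exon of Nr4a1 (left) and Rxrg (right) by the exon they came from, in replicate 1 (circles) and replicate 2 (squares), with Wilson 95% intervals. The unannotated exon of Nr4a1 took 67.6% and 66.7%, and the Rxrg-202 exon 70.6% and 65.0%.

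The start of Nr4a1-201 is the only one of the Nr4a1 starts in the promoter table. Its 250 bases are shown with TGCGTCA, a variant of the cyclic AMP response element, in capitals.

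Nr4a1-201, chr15:101266596-101266845, plus strand: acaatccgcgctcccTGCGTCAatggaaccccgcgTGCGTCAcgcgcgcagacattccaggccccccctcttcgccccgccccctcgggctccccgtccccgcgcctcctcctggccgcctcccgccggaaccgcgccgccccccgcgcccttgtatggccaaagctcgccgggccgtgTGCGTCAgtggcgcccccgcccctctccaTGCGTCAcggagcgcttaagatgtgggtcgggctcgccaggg

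The window held 4 matches to TGCGTCA, at positions 16, 36, 180 and 209 from its first base. Of all 32817 windows, 1.74% held the motif on either strand, and 1 held at least 4 matches. No other window of the 10 genes held it. The full element TGACGTCA, found in 1.55% of windows, was in none of the windows of these genes.

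The difference between the libraries by the reads counted is plotted for the 7 genes tested. Rxrg stayed below 0 and Nr4a1, Ppargc1a and Esrrg above 0 wherever they were tested. Esrra, Rxra and Ppargc1b changed sign with the models counted or the length trend.

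**Figure D4:**
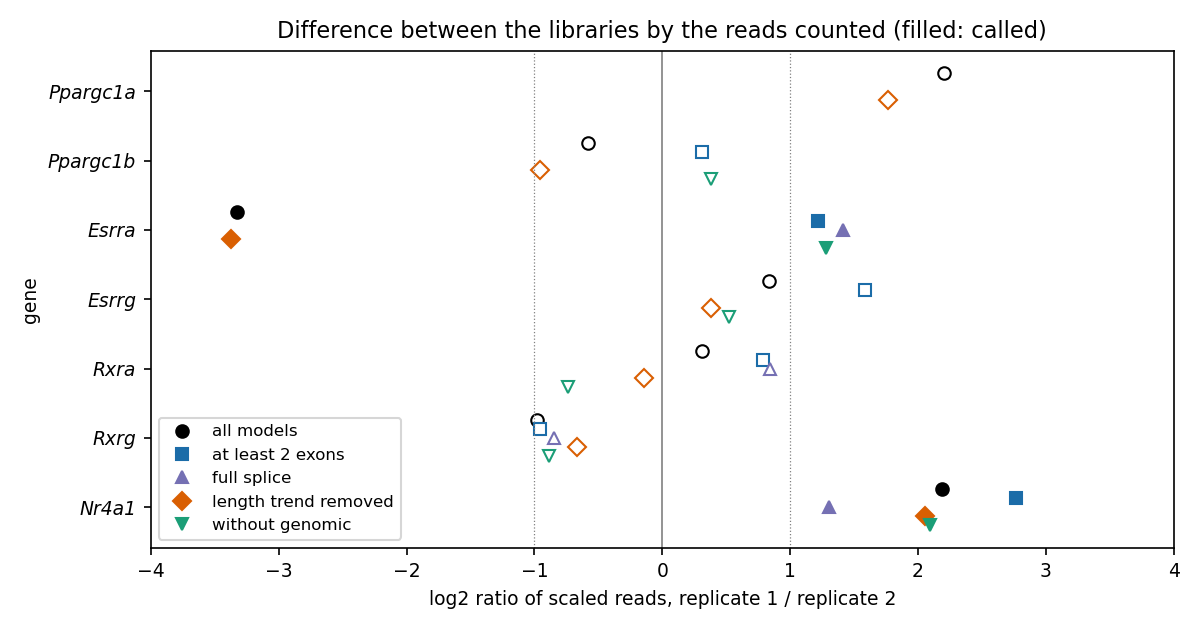
Log2 ratio of replicate 1 to replicate 2 for the 7 genes tested, by the reads counted or the correction made. Filled symbols passed the call rule, dotted lines mark a log2 ratio of 1 in either direction. Esrra lies at -3.33 with all models and at 1.22 with models of at least 2 exons.

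Intron chains of these genes recurred about as often as those of other genes. The 10 genes had 53 distinct chains, of which 14 (26.4%) were in both libraries, against 28.3% over all annotated genes. Of chains with at least 2 reads over both libraries, 14 of 17 (82.4%) were in both, against 72.2%. Of the 14, 8 were known models. Annotated junctions numbered 78, of which 66 were in both libraries, and they were crossed 1324 and 559 times. Unannotated junctions numbered 26, of which 3 were in both libraries, those being in Esrra, Esrrg and Nr4a1.

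Among all 49 nuclear receptor genes, 29 had a spliced read. By the same measure Nr2f6, an orphan receptor and repressor, stood first with 106 and 69 spliced reads (80.5 ± 12.9, SD, n = 2). Rxrb, the third RXR gene, had 65 and 37, and Nr1h2, an oxysterol receptor, 57 and 30. Rxrg and Nr4a1 followed in the fourth and the fifth place. Nr2f6 shared a feature with Esrra. Its reads over all models were 116 and 334, called higher in replicate 2 (log2 ratio -1.98, adjusted p = 3.8e-30, Fisher's exact test), while its spliced reads gave a log2 ratio of 0.00.

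**Figure D5:**
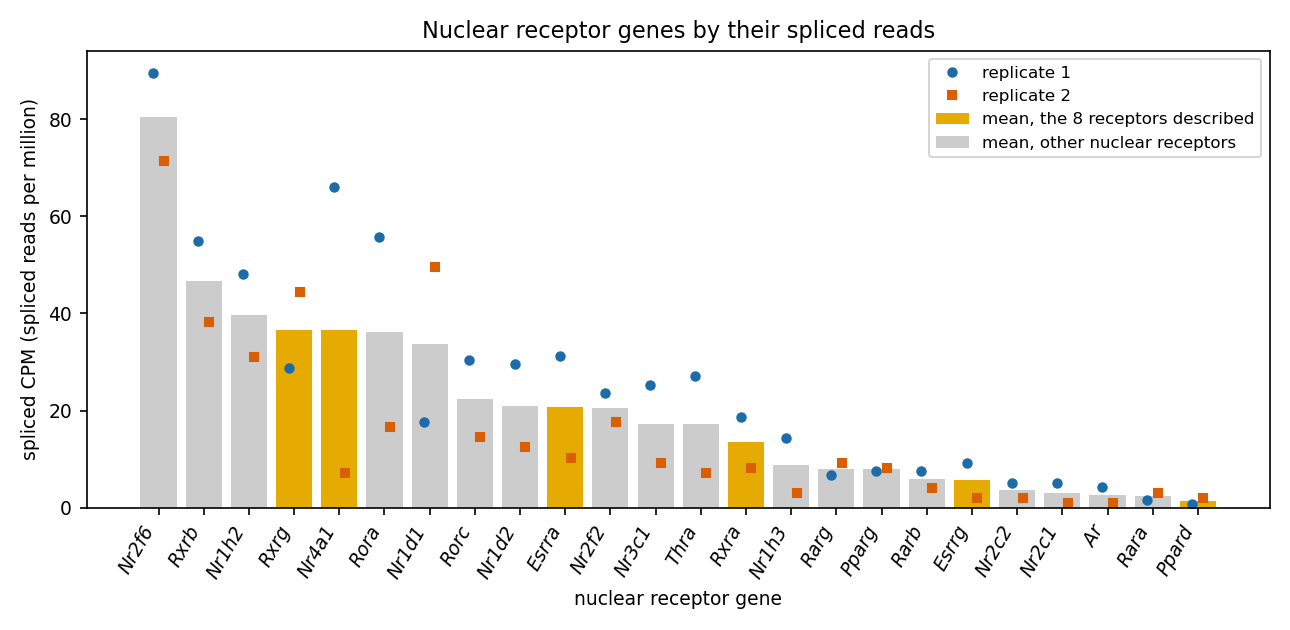
Spliced CPM of the 24 nuclear receptor genes with the highest mean, with the mean as a bar from 0, replicate 1 as circles and replicate 2 as squares. Yellow bars are the receptors described here. Nr4a1 stands at 65.9 in replicate 1 and 7.24 in replicate 2, while Rxrg stands at 28.7 and 44.5.

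Of the other 41 nuclear receptors, 25 had reads and 18 were tested. Higher in replicate 1 were 4 and higher in replicate 2 were 3, against 8.83% and 11.4% of all genes tested, with a median log2 ratio of 0.25 against -0.01 over all genes tested. Rora, a receptor of the clock and of lipid metabolism, was the most abundant of those higher in replicate 1, with 71 and 24 reads (log2 ratio 1.09, adjusted p = 1.4e-04, Fisher's exact test). Over spliced reads the counts were 4 and 1 of 14 tested, against 10.7% and 9.65% of all genes in that test. Without the length trend they were 1 and 4, against 3.71% and 6.9% of all genes, and Rora was no longer called (0.91).

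Of 20 coregulators, all had reads and 13 were tested. Lpin1, a phosphatidate phosphatase that acts with PGC-1alpha and PPARalpha, was called higher in replicate 1, with 68 and 10 reads (log2 ratio 2.25, adjusted p = 2.6e-09, Fisher's exact test), and 0 were called higher in replicate 2, against 8.83% and 11.4% of all genes. The list's median was 0.35. Highest were the arginine methyltransferases Carm1 with 133 and 73 reads and Prmt1 with 39 and 45, Perm1, a muscle gene downstream of PGC-1 and ERR, with 114 and 65, and the deacetylase Hdac3 with 67 and 34. Over spliced reads Perm1, with 111 and 21, was called higher in replicate 1 as well (log2 ratio 1.76), and without the length trend Ncoa6, with 5 and 11 reads, was called higher in replicate 2 (-1.93). Pprc1, the third gene of the PGC-1 family, had 7 and 0 reads.

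Of 17 partner transcription factors and kinases, 15 were tested. Foxo1, a forkhead factor of fasting, and the AMP-activated kinase subunits Prkaa1 and Prkaa2 were called higher in replicate 1 and 0 in replicate 2, against 8.83% and 11.4% of all genes, with a median of 0.70. Prkaa2 had 46 and 11 reads (log2 ratio 1.56, adjusted p = 1.8e-04, Fisher's exact test). Highest were the MEF2 factors Mef2c with 170 and 96 reads, Mef2d with 127 and 55 and Mef2a with 47 and 18, and the lysosomal regulator Tfeb with 107 and 58. After removal of the length trend 1 of the 3 calls remained, that of Prkaa2, where 3.71% of all genes were called in that direction.

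Target genes were far more abundant than the regulators. Of 20 PPAR targets, 17 were tested, 5 were called higher in replicate 1 and 0 in replicate 2, against 8.83% and 11.4% of all genes, with a median of 0.71. Pdk4, the kinase that shuts pyruvate dehydrogenase in fasting, had 1634 reads and 136 reads (log2 ratio 3.12, adjusted p = 4.5e-286, Fisher's exact test). The others were Ucp3, a mitochondrial carrier, Hadha, a beta-oxidation enzyme, Mlycd, which removes malonyl-CoA, and Lpl, the lipoprotein lipase, at log2 ratios of 1.48, 1.52, 1.37 and 1.53. All 5 calls held without the length trend. Fabp3, the fatty acid carrier, was the most abundant, with 2127 and 1670 reads, and Acadvl and Hadhb, enzymes of beta-oxidation, had 910 and 390 and 774 and 344 reads. Ppara and Ppard, whose products act on these genes, had 6 reads in both libraries together.

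Of 23 ERR and PGC-1 targets, all were tested, 3 were called higher in each library, against 8.83% and 11.4% of all genes in replicate 1 and replicate 2, and the median was 0.06. Slc25a4, the ADP/ATP carrier, had 14157 and 15154 reads and Atp5b, a subunit of ATP synthase, 6518 and 5886. Cox8b, a short subunit of cytochrome oxidase, had 904 and 2205 reads (log2 ratio -1.74, adjusted p = 1.8e-158, Fisher's exact test), but 0.01 after removal of the length trend. Without that trend 3 calls higher in replicate 1 and 1 higher in replicate 2 were made.

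Of 14 immediate early genes, the class to which Nr4a1 belongs, 13 had reads and 10 were tested. Dusp1, Klf4, Btg2 and Zfp36 were called higher in replicate 1, as Nr4a1 was, and 0 were called higher in replicate 2, against 8.83% and 11.4% of all genes, with a median of 0.57. Without the length trend 3 of these calls were left, and Btg2 lost its call (1.40). Dusp1, a phosphatase of stress kinases, had 120 and 36 reads (log2 ratio 1.26, adjusted p = 1.2e-08, Fisher's exact test), and Klf4, a zinc finger factor, 25 and 4 reads (log2 ratio 2.04). Zfp36, an RNA-binding protein, had 10 and 0 reads. Jund had 286 and 280 reads, Ier2 40 and 27 and Jun 32 and 13, and none of these passed. Fos had 3 and 2 reads and Egr1 2 and 2. Nr4a2 and Nr4a3, the other two genes of the NR4A family, had 2 and 1 reads and no reads.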

How the data were processed

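The deposited values are raw counts of reads for every transcript model in a library, per the file headers, with the exons of each model in a second file. Notes beside the files name mm10 and GENCODE M21, and the exon files name TALON, which places long reads on models. The sources used here do not give its version, the aligner or the platform. The authors' classes are known, ISM, NIC (known splice sites in an unannotated chain), NNC (at least 1 other site) and genomic.

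Reads of a gene were summed over its models. Log2 ratios of the main test used a prior count of 0.5 and edgeR 4.0.16 TMM factors, which did not enter its p-values. With 1 group, edgeR's quasi-likelihood test has nothing to compare. Libraries were therefore compared by two-sided Fisher's exact tests of a gene's reads against all others (scipy 1.17.1, Benjamini-Hochberg adjustment). At least 10 reads in the sum were needed. Leading splice chains were tested likewise in genes with at least 20 full splice reads in each library. The scripts were tested on simulated data. Models were matched between libraries by intron chain. Promoter windows came from RefSeq and junctions from GENCODE M21, both C57BL/6 reference.

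The genes, lists and rules were chosen with earlier results of these data known. The text names all 10 genes, the 4 most abundant genes of each list, called list genes where 5 or fewer, and within a gene the 3 models with the most reads, every model with at least 3 and known models with another first exon, though models tied at 1 or 2 reads are not all named. Other names were chosen after their values were seen: Prdx5, Trmt112, Pparg, Pprc1, Ncoa6, Pdgfra, Nppa, Myl7, Fos, Egr1, Nr4a2 and Nr4a3. A gene that this rule names among the ERR and PGC-1 targets is not reported here.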

Additional observations from a re-analysis of the deposited data

Results flagged for a closer look

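Reads outside the annotated genes lay on the opposite strand of some of these genes, in loci the tables assign to no annotated gene, above the 3 reads that a count of 0 allows. Over Ppargc1a they numbered 4 in replicate 1 and 6 in replicate 2, over Ppargc1b 5 and 4, over Esrrg 2 and 9, and over Ppard 4 and 2. The largest single model, over Esrrg in replicate 2, had 4 reads. Such loci held 1.22% of all reads in replicate 1 and 3.83% in replicate 2, and the source of these reads was not tested.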

How the results depend on the processing

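Depth left 3 of the 10 genes without a test, and a single read is 0.801 or 0.904 CPM. No paired analysis was possible because the labels give 1 group with 1 library per replicate number. The counts restricted to models of at least 2 exons and those without genomic models were chosen after seeing the data. The summed level of the 10 genes, 655 ± 544 CPM (SD, n = 2), was 80.6 CPM in full splice models, 68.5 CPM in known models, and 270.6 to 1039 CPM when a replicate was left out. Their full splice share of 21.9% ranged from 5.57 to 38.2% when a replicate was left out. Without the length trend 333 and 619 of all genes were called higher in replicate 1 and in replicate 2, against 792 and 1021, and the cause was not tested. Under 3 settings, 2 of the 10 genes were called higher in replicate 1 and 0 in replicate 2, against 1 and 1. These were full splice models, models of at least 2 exons and without genomic models, where Esrra turned to 1.41, 1.22 and 1.28 (log2). Of all genes tested, 11.4%, 10.7% and 11.8% were called higher in replicate 1 and 10.9%, 9.65% and 11% in replicate 2. Ppargc1a had too few reads for a test in these settings, as had Ppargc1b and Esrrg in full splice models. For Nr4a1, full splice models are unlike sets in the 2 libraries. No other setting changed a call of these genes, though a change of scaling factors could act on the log2 limit only. Ppargc1b turned from -0.58 to 0.31 in models of at least 2 exons and 0.38 without genomic models, and Rxra from 0.31 to -0.14 without the length trend and -0.73 without genomic models, without a call. Chains in both libraries were 14, and 9 in full splice classes alone, where fewer chains were counted. Genes called for their leading chain numbered 45 of 2898 tested. With minima of 10 and 50 full splice reads they were 41 of 4283 and 50 of 1417, and among known chains 34 of 1592. These counts stayed within 1.5 times the first, but the numbers tested differed, so the share called was not stable.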
